A study of Mus musculus with 6 samples.

Results

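Transcripts of 31 podocyte genes were followed in sorted nephron progenitors of the embryonic mouse kidney, with and without the miR-17~92 microRNA cluster. The 31 were a fixed list of symbols, and every one was found among the 27179 Entrez Gene entries of the expression table. Cells were taken at E16.5 (embryonic age in days) by the green fluorescence of a reporter under Six2 control. Both genotypes carried the Six2TGC transgene, which makes Cre recombinase in the same progenitors, and the mutants (Six2TGC;miR-17~92fl/fl) had floxed copies of the cluster in addition. There were 3 control and 3 mutant libraries, each a pool of 4 embryos. The controls are labelled Six2TGC alone, with no floxed allele, and strain background and sex are not given. The effect of the deletion and of any background carried with the floxed allele cannot be told apart.

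Podocytes are the epithelial cells that wrap the glomerular capillaries. Their interlocking foot processes are joined by the slit diaphragm, a sheet of nephrin and NEPH proteins tied to an actin skeleton, and they lay down and rest on the glomerular basement membrane. They arise from the nephron progenitor lineage through the renal vesicle and the S-shaped body, after Six2 has been turned off. Many genes used as podocyte markers are also active elsewhere in the embryonic kidney: Tcf21 in stroma, Foxc1 and Foxc2 in uninduced mesenchyme, ezrin and ZO-1 in many epithelia.

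The cluster's 6 main mature microRNAs have 4 different seeds, the bases 2 to 8 that pair with targets. They are shown because microRNAs bind transcripts through such matches, most often in the 3′ UTR. Sequences are from RefSeq (GRCm38.p6, chromosome 14, plus strand), 5′ to 3′, with the seed in capitals.
miR-17-5p: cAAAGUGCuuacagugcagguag
miR-20a-5p: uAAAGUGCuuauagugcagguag
miR-18a-5p: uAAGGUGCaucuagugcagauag
miR-19a-3p: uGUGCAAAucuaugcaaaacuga
miR-19b-3p: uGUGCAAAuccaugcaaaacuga
miR-92a-3p: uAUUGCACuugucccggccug

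miR-17-5p and miR-20a-5p share a seed, and so do miR-19a-3p and miR-19b-3p. Matches to bases 2 to 8 were searched on the transcript strand in 1 3′ UTR per gene, the longest that GENCODE M21 annotates. A match was found in 12 of 31 podocyte genes (38.7%) and in 4248 of 11715 tested genes with a 3′ UTR (36.3%), so the list held matches about as often as other genes. By seed, the shares were 16.1% of podocyte genes and 15.5% of tested genes for GCACTTT (miR-17-5p and miR-20a-5p). They were 9.68% and 10.4% for GCACCTT (miR-18a-5p), 19.4% and 14.5% for TTTGCAC (miR-19a-3p and miR-19b-3p), and 12.9% and 8.23% for GTGCAAT (miR-92a-3p). The median 3′ UTR was 1711 bases in podocyte genes and 1411 in tested genes. All matches found in Podxl, Ptpro, Clic5 and Plce1, which were highest in the same mutant library, and in the growth factor gene Vegfa are printed, with the 7 matched bases in capitals.
Podxl, miR-19a-3p and miR-19b-3p: tccatcggTTTGCACcctcc
Ptpro, miR-17-5p and miR-20a-5p: gtaaaaatGCACTTTctttc
Ptpro, miR-92a-3p: ttttttaaGTGCAATaattt
Clic5, miR-17-5p and miR-20a-5p: agggaacaGCACTTTtttct
Clic5, miR-92a-3p: gttttctgGTGCAATatgat
Plce1, miR-19a-3p and miR-19b-3p: accccttcTTTGCACattct
Plce1, miR-92a-3p: tcagcagaGTGCAATggact
Vegfa, miR-17-5p and miR-20a-5p: ttcgaggaGCACTTTgggtc

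The genes printed were picked with their values known. The other genes with a match were Cd2ap, Dag1, Kirrel, Lmx1b, Magi2, Synpo and Thsd7a, of which Thsd7a was also highest in that mutant library. Myo1e and Enpep, the 2 members that differed between genotypes, had no match. Such a match is a description of the sequence and does not show that the site is used.

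Depth, worked out from the expression values, lay between 27602025 and 36134381 counted reads per library; sequencing was paired-end, and a counted read may stand for a pair. Mitochondrial ribosomal RNA took 27.0% to 30.4% of reads in controls and 32.2% to 38.2% in mutants. Of the targeted cluster, Mir17 fell from 31, 26 and 16 reads in the controls to 2, 0 and 0 in mutants (limma adjusted p 8.54e-05). Mir17hg, the entry of the host transcript, rose from 44 ± 9.71 to 212 ± 41.1 RPKM (SD, n = 3 each; limma adjusted p 4.93e-05). RPKM scales reads by gene length and by library depth. The median of all tested genes lay at a log2 fold change of -0.125 as deposited; it was -0.032 after scaling by median of ratios and -0.020 after quantile normalization. Nothing in the labels says that pools came from separate litters, so p-values measure the spread between these pools.

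As a check of what was sorted, the progenitor transcription regulators Six2 (69.9 to 104 RPKM in controls, 57 to 77 in mutants) and Eya1 (257 to 315 and 213 to 245 RPKM) were high. The 5 defining podocyte markers, Nphs1, Podxl, Synpo, Ptpro and Clic5, together came to 2.05, 2.31 and 1.99 RPKM in controls and 6.41, 1.89 and 2.23 in mutants. Progenitor regulators were thus high and podocyte-defining transcripts low in every library, with the sum of the latter highest in mutant replicate 1. Stromal transcripts were present too: 10 stromal markers summed to between 66 RPKM (control replicate 3) and 202 RPKM (mutant replicate 2).

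RPKM is per length, so levels can be set side by side between genes. In controls 11 of the 31 genes had a mean of at least 10 RPKM, 8 lay between 1 and 10, and 12 lay under 1. The highest were Cd2ap (47.1 ± 8.38 RPKM), Ezr (39.4 ± 7.01), Foxc1 (32.9 ± 1.16), Tjp1 (29 ± 0.528) and Vegfa (27.9 ± 4.09; SD, n = 3 for each). Control ranges overlapped between Cd2ap and Ezr, between Ezr and Foxc1, and between Tjp1 and Vegfa, so the order within these pairs is not resolved; Foxc1 was above Tjp1 in each control. The lowest were Nphs1 (0.0216 ± 0.0323 RPKM), Tdrd5 (0.0757 ± 0.0403) and Trpc6 (0.109 ± 0.0675; SD, n = 3). All 5 defining markers had control means under 1 RPKM.

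**Figure D1:**
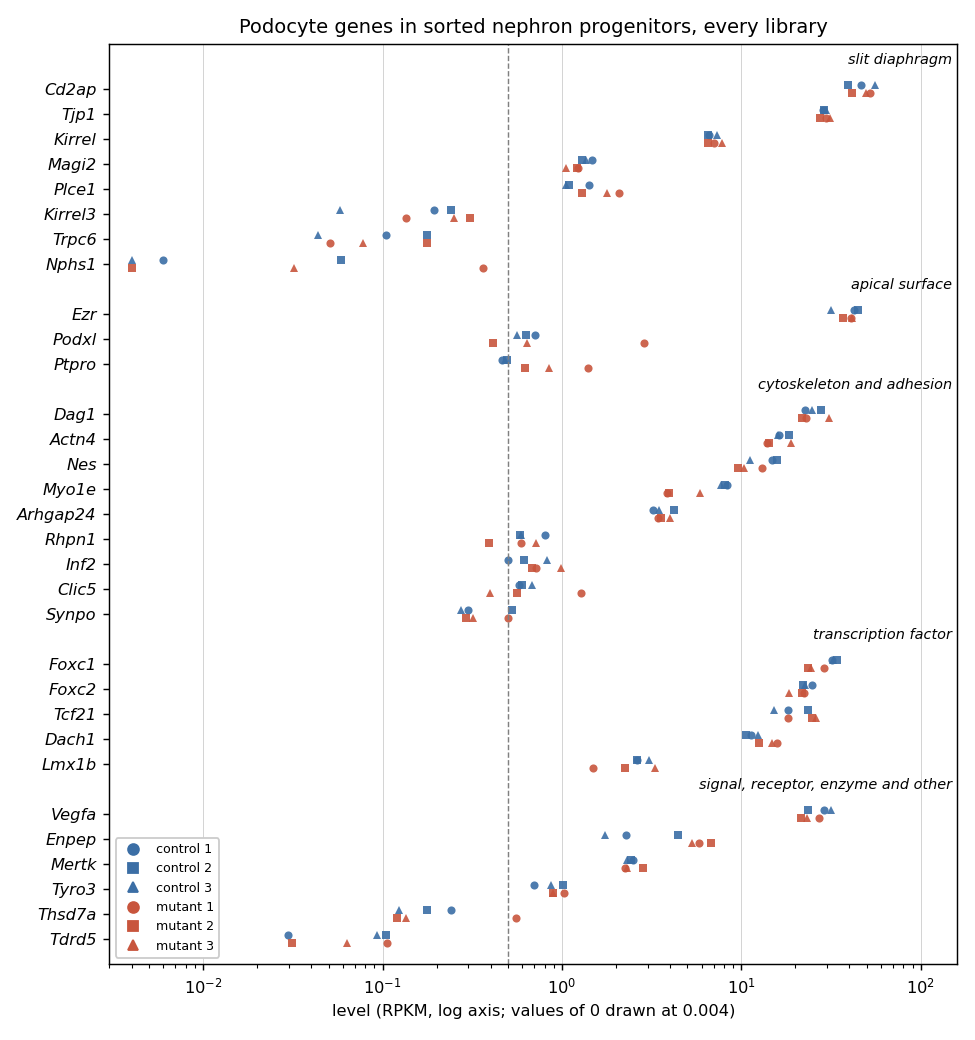
Level of each of the 31 podocyte genes in every library (RPKM, log axis), grouped by role and ordered by control mean within a group; blue marks controls, red marks mutants, and the dashed line is the filter of 0.5 RPKM. The 6 points of most genes above 1 RPKM lie close together, while Nphs1, Podxl, Ptpro, Clic5 and Thsd7a have a single red circle, mutant replicate 1, to the right of the rest.

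Of the 31 genes, 25 had a mean of at least 0.5 RPKM and were tested with all other genes in limma on log2(RPKM + 0.5). Enpep rose in mutants, Myo1e fell and 23 did not pass at an adjusted p of 0.05. Across all 13463 tested genes 3.13% passed, 1.32% higher and 1.81% lower. At an unadjusted p of 0.05, 5 of the 25 passed, against 19.6% of all tested genes, so the list was close to the background. The median log2 fold change of the 25 was 0.021, and 18 of them lay above the median of all genes. Scaled by median of ratios, the median of the podocyte genes was 0.123. In 16 of the 25 the genotypes differed by less than 0.25 on the log2 scale.

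**Figure D2:**
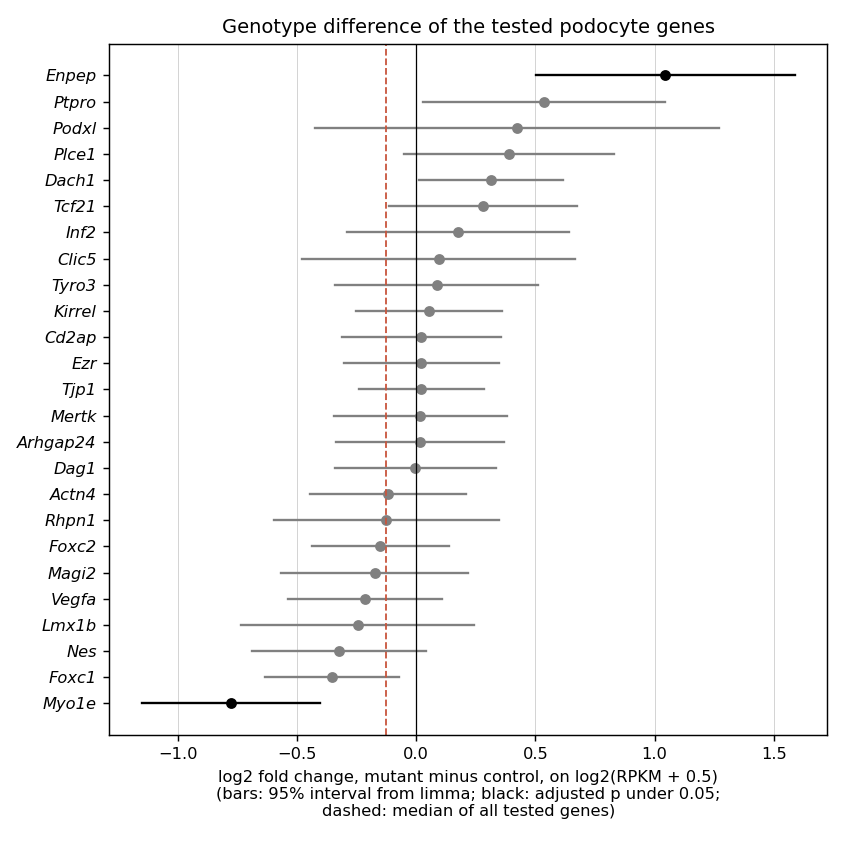
Log2 fold change (mutant minus control, log2(RPKM + 0.5)) of the 25 tested podocyte genes, with 95% intervals from limma; black marks an adjusted p under 0.05 and the dashed line is the median of all tested genes. Enpep stands at the top at 1.04 and Myo1e at the bottom at -0.78, and 18 of the 25 lie above the dashed line.

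Myo1e encodes the class I myosin 1e, a motor that links membrane to actin in foot processes and whose loss causes glomerular disease. It lies on chromosome 9, from 70207350 to 70400067 (GRCm38.p6), and shares no exon bases with another annotated gene. Its level was 8.35, 8.12 and 7.65 RPKM in controls and 3.87, 3.94 and 5.88 in mutants. All 3 mutants lay below all controls, with mutant replicate 3 nearest to them. The log2 fold change was -0.78 with standard error 0.17 (95% interval -1.15 to -0.40; limma adjusted p 0.0333), a mutant level of between 0.45 and 0.756 of the control. Its limma adjusted p was 0.122 when control replicate 1 was left out, 0.142 for mutant replicate 1 and 0.17 for mutant replicate 2, and the call was also lost with no low-value filter (0.12) and without the mean-variance trend (0.0518); the adjusted p ran from 0.00468 to 0.17 over the alternatives. The direction was the same in each of them. The summed level of 7 nephron progenitor genes was also lower in mutants (500, 450 and 542 RPKM) than in the controls (651, 622 and 664), and its part in the fall of Myo1e was not tested. In bulk RNA, fewer cells of a type and less RNA per cell cannot be told apart.

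Enpep encodes glutamyl aminopeptidase, a surface enzyme that cleaves angiotensin II and sits on podocytes and on the proximal tubule brush border. It lies on chromosome 3, from 129269177 to 129332749, again with no exon bases shared with another gene. Values were 2.27, 4.41 and 1.74 RPKM in controls and 5.84, 6.73 and 5.32 in mutants. The groups did not overlap, although control replicate 2 came near the lowest mutant. The log2 fold change was 1.04 with standard error 0.25 (95% interval 0.50 to 1.59; limma adjusted p 0.0450). The call did not hold when control replicate 1 (limma adjusted p 0.133) or mutant replicate 1 (0.145), 2 (0.246) or 3 (0.0973) was left out, or with a pseudocount of 0.1 (0.0507), no filter (0.188), quantile normalization (0.0565) or no trend (0.0707). Without control replicate 2 the adjusted p was 0.00046, the lowest of the alternatives.

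The 8 nephron tubule markers summed to 4.07, 4.83 and 4.33 RPKM in controls and 8.2, 6.85 and 20.1 in mutants, with all 8 higher on average in mutants. Slc12a1, a transporter of the loop of Henle, was the 1 called gene of the list (limma adjusted p 0.00561). Its control mean of 0.326 RPKM is under the filter, so Slc12a1 was tested because of its mutant values (mean 4.48 RPKM). Without Slc12a1 the sums were 3.95, 4.6 and 3.7 RPKM in controls and 5.01, 4.89 and 11.8 in mutants. Mutant replicate 3, where tubule markers were highest, had the lowest Enpep of the 3 mutants. The 10 stromal markers summed to 111, 163 and 66 RPKM in controls and 124, 202 and 177 in mutants. Their sum was highest in control replicate 2 and mutant replicate 2, where Enpep was highest within each genotype. Mutant replicate 1, with the lowest stromal sum of the mutants, had more Enpep than mutant replicate 3 (5.84 and 5.32 RPKM). No tubule or stromal marker was at 0 in every library. Whether these cells contribute to the rise of Enpep was not tested.

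**Figure D3:**
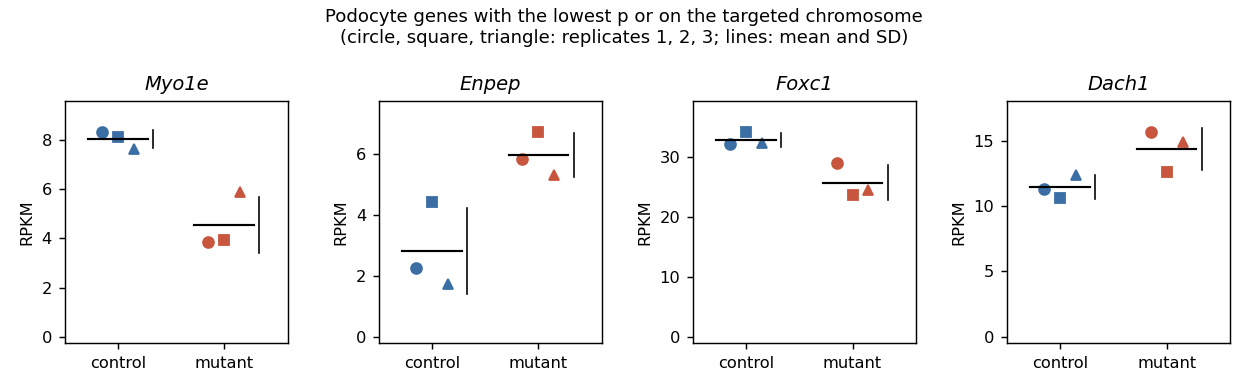
RPKM of Myo1e, Enpep, Foxc1 and Dach1 in every library (circle, square and triangle for replicates 1, 2 and 3; lines give the mean and SD of 3 libraries). In each panel the 3 mutants and the 3 controls occupy separate ranges; for Myo1e the mutants lie at 3.87 to 5.88 RPKM and the controls at 7.65 to 8.35.

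Among the slit diaphragm genes and their adaptors, 5 of 8 were tested and none passed in limma. Cd2ap, the adaptor that binds nephrin to actin, was at 47.1 ± 8.38 RPKM in controls and 47.6 ± 5.42 in mutants. Tjp1, which encodes the junction protein ZO-1, was at 29 ± 0.528 and 29.5 ± 1.87 RPKM, and Kirrel, which encodes NEPH1, the partner of nephrin, at 6.8 ± 0.439 and 7.09 ± 0.634 RPKM (SD, n = 3 each). The 95% intervals of the fold change were 0.805 to 1.28 for Cd2ap, 0.846 to 1.22 for Tjp1 and 0.838 to 1.28 for Kirrel, so for these abundant transcripts a change of 1.5-fold lay outside the interval. Magi2, a scaffold of the slit diaphragm, had 1.47, 1.3 and 1.36 RPKM in controls and 1.23, 1.21 and 1.05 in mutants. Its groups did not overlap, but the log2 fold change of -0.17 was near the median of all genes (limma adjusted p 0.593). Plce1, the phospholipase C epsilon whose loss stops podocyte maturation, had 1.42, 1.09 and 1.05 RPKM in controls and 2.09, 1.3 and 1.78 in mutants (log2 fold change 0.39, limma adjusted p 0.308).

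The other 3 slit diaphragm genes lay under the filter and are given by reads. Kirrel3, another NEPH family member, gave 79 control and 96 mutant reads, a ratio of read rates of 1.33 (exact 95% binomial interval 0.977 to 1.81). Trpc6, the calcium channel mutated in familial glomerulosclerosis, had 35 and 28 reads (ratio 0.875, 0.513 to 1.48). Both intervals include no change. Intervals on read ratios, for these and all other genes, pool the reads of each genotype and leave out the spread between libraries. Reads copied by amplification do not count separate molecules, so the intervals may be too narrow even for counting error.

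Nphs1 encodes nephrin, the backbone of the slit diaphragm. Its reads were 1, 12 and 0 in controls and 62, 0 and 5 in mutants, or 0.00599, 0.0587 and 0 RPKM against 0.362, 0 and 0.032. Most of its reads over the series thus came from mutant replicate 1. The mutant to control ratio of read rates was 5.64 (exact 95% binomial interval 3.09 to 11.1), and 0.651 without mutant replicate 1. Of the annotated exon bases of Nphs1, 11.8% overlap genes on the opposite strand, among them Nphs1os, and the counting is not stated to use strand, so reads of the overlapping genes cannot be told apart there.

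Podxl, which encodes podocalyxin, the charged sialomucin of the podocyte's apical surface, was also highest in that library. It stood at 0.706, 0.633 and 0.56 RPKM in controls and at 2.86, 0.412 and 0.639 in mutants. Mutant replicate 1 had 4.84 times the mean of the other 5 libraries, while mutant replicates 2 and 3 lay within or below the control range. The log2 fold change was 0.42 with standard error 0.39 (limma adjusted p 0.548), and it was -0.15 without mutant replicate 1. Ezr, the ezrin that anchors podocalyxin to actin, ran from 31.4 to 44.6 RPKM over the 6 libraries with no separation of the genotypes (log2 fold change 0.02, limma adjusted p 0.945).

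Ptpro encodes GLEPP1, a receptor tyrosine phosphatase of the foot process surface. In the controls it was at 0.462, 0.496 and 0.48 RPKM, and in mutants at 1.4, 0.624 and 0.843. All mutants were above all controls, by a small margin in mutant replicate 2. It had the largest log2 fold change after Enpep and Myo1e, 0.54 with standard error 0.23, and did not pass (limma adjusted p 0.237). The control mean of 0.479 RPKM is under the filter, so Ptpro was tested because of its mutant values. By reads the ratio was 2.02, and 1.53 without mutant replicate 1.

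Of the 9 cytoskeletal and adhesion genes 8 were tested, and Myo1e alone passed. Actn4, the crosslinker alpha-actinin 4, was at 16.9 ± 1.41 RPKM in controls and 15.6 ± 2.76 in mutants, and Dag1, the laminin receptor dystroglycan, at 25.1 ± 2.66 and 25.2 ± 4.86 (SD, n = 3). Nes, the intermediate filament nestin, was at 13.9 ± 2.38 and 11 ± 1.86 RPKM (log2 fold change -0.32, limma adjusted p 0.307). Arhgap24, a Rac-inactivating protein, differed by a log2 fold change of 0.02, with an interval of the fold from 0.791 to 1.29. Inf2, the formin mutated in glomerulosclerosis, lay under 1 RPKM in every library (log2 fold change 0.18, limma adjusted p 0.65). The direction of Dag1 and Arhgap24 is not settled: scaled by median of ratios, Dag1 had a log2 fold change of 0.0976 in place of -0.00395, and Arhgap24 changed sign when single libraries were left out.

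Clic5, an ezrin-associated protein enriched in foot processes, had 0.578, 0.599 and 0.679 RPKM in controls and 1.28, 0.564 and 0.395 in mutants. Mutant replicate 1 was again the highest, and mutant replicates 2 and 3 lay below every control. Its log2 fold change was 0.09 (limma adjusted p 0.858), and -0.20 without mutant replicate 1. Synpo, which encodes the actin-associated synaptopodin, was under the filter, at 0.3, 0.525 and 0.275 RPKM in controls and 0.502, 0.293 and 0.321 in mutants. There control replicate 2 and mutant replicate 1 were the highest, and the ratio of read rates was 0.991 (exact 95% binomial interval 0.825 to 1.19).

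In all, 9 of the 31 genes were highest in mutant replicate 1: Nphs1, Podxl, Ptpro, Clic5, Plce1, Thsd7a, Tdrd5, Dach1 and Tyro3. Of the 25 tested podocyte genes 6 had their highest value there, as 1351 of all 13463 tested genes did. Thsd7a, which encodes a podocyte surface protein recognised by autoantibodies in membranous nephropathy, had 78, 70 and 38 reads in controls and 185, 37 and 41 in mutants. Its ratio of read rates was 1.55 (exact 95% binomial interval 1.28 to 1.88), and 0.71 without mutant replicate 1. Nphs1, Podxl, Ptpro, Clic5 and Thsd7a were at least 2 times higher in that library than the mean of the other 5, that is 5 of the 12 members with a control mean under 1 RPKM, and 584 of all 5839 genes in that range (mean above 0.05 RPKM) were. The threshold of 2 and the range were chosen after the values were seen, and the shares are a description.

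**Figure D4:**
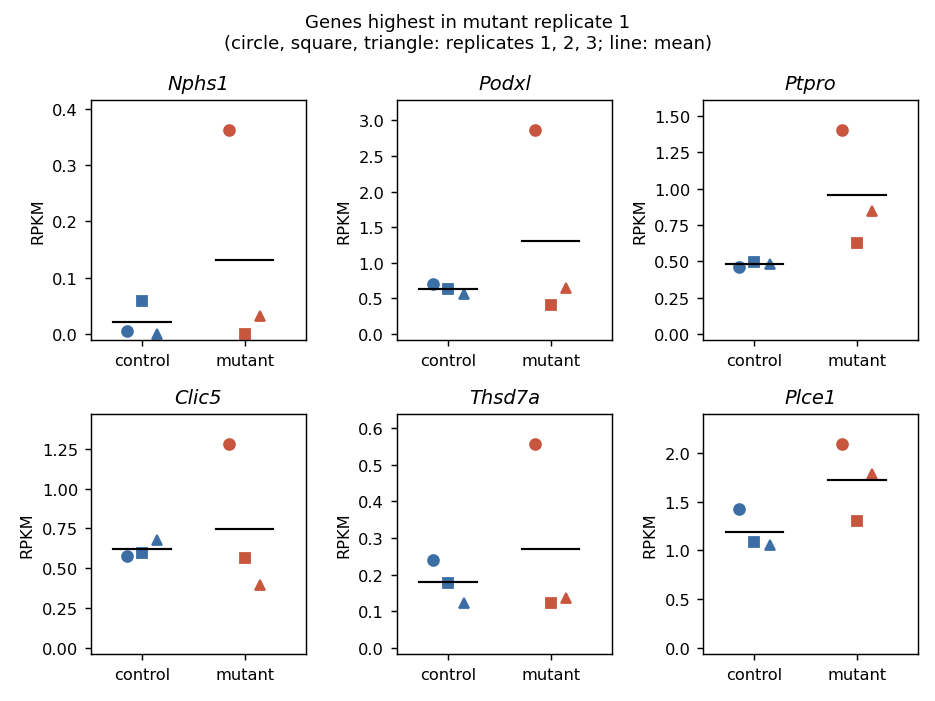
RPKM of Nphs1, Podxl, Ptpro, Clic5, Thsd7a and Plce1 in every library (circle, square and triangle for replicates 1, 2 and 3; the line is the mean of 3 libraries). The red circle, mutant replicate 1, is the highest point in each panel; for Podxl it stands at 2.86 RPKM with the other 5 libraries between 0.412 and 0.706.

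The renal vesicle list, which marks the stage of the lineage before podocytes, was also partly highest in mutant replicate 1. Of its 7 genes, 4 peaked there: Lhx1 at 3.45 RPKM, Jag1 at 5.4, Dll1 at 1.75 and Bmp2 at 7.33, and the other 3 peaked in mutant replicate 3. Lhx1 encodes a LIM homeobox factor of the early nephron, and Jag1 and Dll1 encode Notch ligands. The sum of the list was 78.8 RPKM in mutant replicate 1 and 80.6 in mutant replicate 3, but most of it came from Pax8. Without Pax8, left out after the values were seen, it was 24.3, 25.5 and 20.5 RPKM in controls and 32.4, 23.8 and 28 in mutants, highest in mutant replicate 1. Part of the podocyte list and part of the renal vesicle list were thus highest in that library. For Bmp2 the margin was small, with 7.12 RPKM in control replicate 1. The part of the one list in the other was not tested.

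In the other lists the pattern by library differed. All 8 tubule markers peaked in mutant replicate 3. No ureteric bud, stromal or nephron progenitor marker peaked in mutant replicate 1, and 1 of 6 endothelial markers did. Macrophage and leukocyte markers summed to 16.9, 15.9 and 16.7 RPKM in mutants and to 5.69 to 9.62 in the controls, with 3 of 10 highest in mutant replicate 1.

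**Figure D5:**
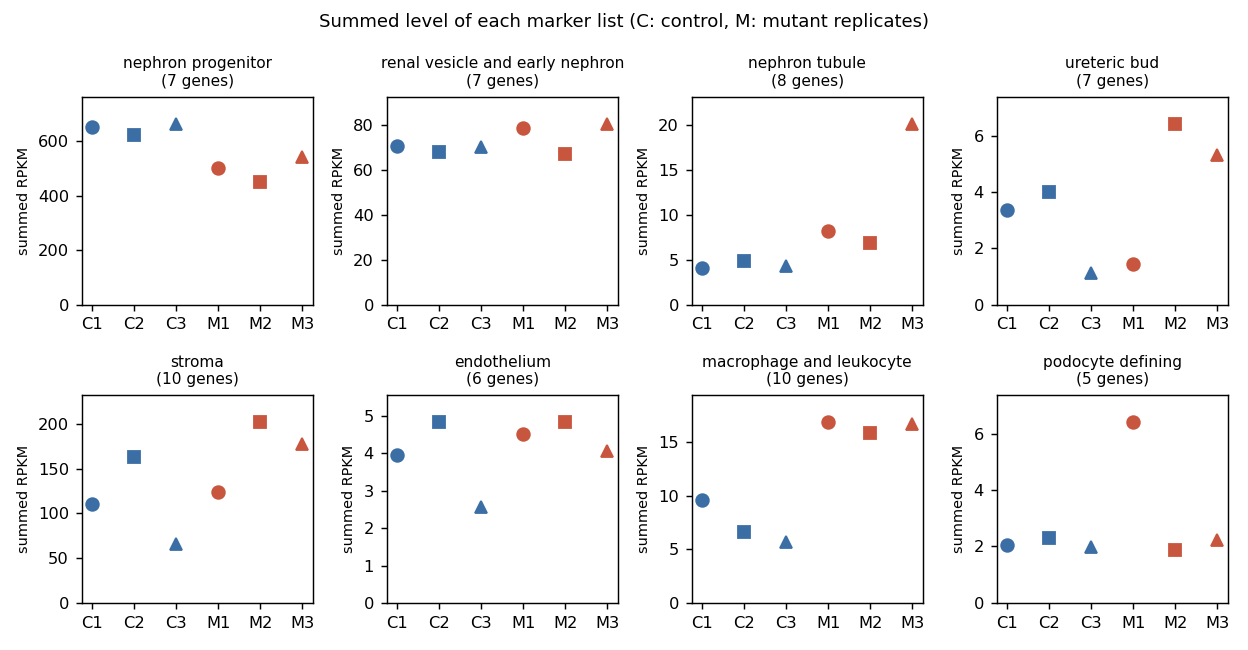
Summed RPKM of each marker list in every library (C, control; M, mutant; replicates 1 to 3; each vertical axis starts at 0). The 5 defining podocyte genes reach 6.41 RPKM in mutant replicate 1 and stay between 1.89 and 2.31 in the other libraries, while the nephron progenitor list lies between 450 and 664 RPKM throughout.

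All 5 podocyte transcription factors were tested and none passed. Foxc1, a forkhead factor that acts with Foxc2 in podocyte development and is also made by kidney mesenchyme, had the third lowest p of the members. It was at 32.1, 34.2 and 32.3 RPKM in controls and 29, 23.6 and 24.5 in mutants, with no overlap. Its log2 fold change was -0.35 with standard error 0.13 (limma adjusted p 0.172). Foxc2 was at 23.2 ± 1.57 and 20.9 ± 2.16 RPKM (SD, n = 3), with overlapping groups; its log2 fold change, -0.15, did not pass (limma adjusted p 0.529).

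Tcf21, a bHLH factor needed for glomerular development and active in stroma as well, was at 18.2, 23.5 and 15.2 RPKM in controls and 18.3, 24.7 and 26 in mutants. The log2 fold change was 0.28 (limma adjusted p 0.401). It was lowest in control replicate 3 and high in control replicate 2 and mutant replicates 2 and 3, and so was the stromal marker sum (66 RPKM in control replicate 3, and 163, 202 and 177 in those libraries). Of the stromal list, Foxd1 did not follow, at 12.4 RPKM in control replicate 3 and 9.1 in mutant replicate 3. Most other stromal markers were lowest in control replicate 3. The part of stromal RNA in the level of Tcf21 was not tested.

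Lmx1b, the LIM homeobox factor mutated in nail-patella syndrome, was at 2.62, 2.61 and 3.06 RPKM in controls and 1.49, 2.24 and 3.3 in mutants. Unlike the defining markers, it was lowest in mutant replicate 1 (55 reads, against 76 and 111 in the other mutants). Its log2 fold change was -0.25 (limma adjusted p 0.546).

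Dach1, a transcriptional cofactor kept on in mature podocytes, had 11.3, 10.6 and 12.4 RPKM in controls and 15.7, 12.6 and 14.9 in mutants. The groups were separate by a narrow margin (log2 fold change 0.31 with standard error 0.14, limma adjusted p 0.244). It is the single member on chromosome 14, at 97786846 to 98169765, 16.9 Mb from Mir17. On that chromosome 10.2% of 470 tested genes passed, and 2.9% of those on other autosomes did, and linked background and deletion cannot be told apart there.

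Across the tested members the groups did not overlap in 6, with mutants higher in Enpep, Ptpro and Dach1 and lower in Myo1e, Foxc1 and Magi2. That is 3 of 25 in each direction, where 7.06% of all tested genes had all mutants higher and 18.0% all mutants lower. The groups overlapped in each of the 6 members under the filter.

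Of the 6 genes for signals, receptors and other products 4 were tested, and Enpep alone passed. Vegfa, the growth factor by which podocytes sustain the glomerular endothelium, was at 28.7, 23.5 and 31.5 RPKM in controls and 27.1, 21.5 and 23.1 in mutants (log2 fold change -0.22, limma adjusted p 0.424). Its groups overlapped. The 6 endothelial markers summed to 3.96, 4.84 and 2.57 RPKM in controls and 4.51, 4.84 and 4.06 in mutants. Only 2 of them, Tek and Emcn, were above the filter and tested, and neither passed. On average 5 of the 6 were higher in mutants. Mertk and Tyro3, receptor tyrosine kinases that bind Gas6 and protein S, were at 2.41 ± 0.102 and 0.856 ± 0.154 RPKM in controls and 2.46 ± 0.327 and 0.934 ± 0.0735 in mutants (SD, n = 3). Mertk also marks macrophages. Its groups overlapped, while the summed macrophage and leukocyte list was higher in all mutants than in any control. The part of macrophage RNA in the level of Mertk was not tested. Tdrd5, a Tudor-domain gene best known from the germ line, gave 25 control and 20 mutant reads (ratio 0.875, exact 95% binomial interval 0.461 to 1.64).

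The 10 tested members with a seed match had a median log2 fold change of 0.038 and the 15 without one a median of 0.018. Over all tested genes the medians were -0.096 with a match and -0.147 without. None of these 10 passed in limma, and the largest log2 fold changes among them were those of Ptpro and Podxl, whose values rested in part on mutant replicate 1. Ptpro, Podxl, Plce1, Clic5, Kirrel and Cd2ap had log2 fold changes above 0, and Dag1 was at -0.004. Vegfa, with a match to miR-17-5p and miR-20a-5p, and Magi2, with 4 matches, lay lower in mutants on average. In Magi2 a match for miR-19a-3p and miR-19b-3p overlapped that for miR-17-5p and miR-20a-5p. Lmx1b, with 2 matches to miR-18a-5p, was also lower and had the lowest log2 fold change of the 10 (-0.25).

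A wider list of 35 genes of the podocyte, its slit diaphragm and the glomerular basement membrane was also examined. Of these 28 were tested, 1 rose, none fell and 27 did not pass. Sulf1, an enzyme that trims sulfate from heparan sulfate and is made by podocytes, stood at 5.5, 5.6 and 5.89 RPKM in controls and 11.4, 9.68 and 10.8 in mutants. Each mutant was above every control by a wide margin (log2 fold change 0.85 with standard error 0.14, limma adjusted p 0.00565), and the call held in the 16 alternatives run (0.000555 to 0.0436). At an unadjusted p of 0.05, 5 of the 28 were higher and 3 lower, beside 19.6% of all tested genes in either direction, and the 1 call stands beside 3.13% of all tested genes.

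Col4a3 and Col4a4 encode the collagen IV chains that podocytes add as the basement membrane matures. Both lay under the filter and were chosen after their values were seen. Col4a3 had 14, 46 and 24 reads in controls and 111, 55 and 82 in mutants, a ratio of read rates of 3.23. Col4a4 had 21, 32 and 14 reads and 53, 48 and 64 reads (ratio 2.69). Every mutant exceeded every control in RPKM for both genes, and the ratios without mutant replicate 1 were 2.76 and 2.83. Being under the filter, neither was tested.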

How the data were processed

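The authors deposited 1 table of RPKM values (reads scaled by gene length and library depth) for 27179 Entrez Gene entries in 6 libraries of total RNA from sorted cells. Per the submitters' processing notes mm10 was the genome build, with FastQC and limma among the tools. Column names point to subread alignments, per the file headers. Libraries were amplified cDNA (Ovation RNA-Seq System), sequenced paired-end, per the labels' protocols. The annotation, the counter and its strand setting were not given in the sources used here. RefSeq symbols (GRCm38.p6) matched 25275 entries.

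Low RPKM values are whole multiples of 1 read, so depth, counted length and reads were worked out from the table, within 0.1 of a read; these reads sum to between 99.7% and 99.8% of the depth. At these depths 1 read on 1 kb is worth 0.0277 to 0.0362 RPKM.

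Genotypes were compared with limma 3.58.1 (R 4.3.3) on log2(RPKM + 0.5), with a mean-variance trend, for genes averaging 0.5 RPKM or more, two-sided, with Benjamini-Hochberg adjustment over all 13463 of them at 0.05. Fold changes on this scale understate those of low genes. On simulated data for this comparison (13456 genes a table), 41.4% of genes changed 1.5-fold, 91.3% changed 2-fold and 99.4% changed 4-fold were called. Of the calls 9.25% were false, and 0.311% among genes of at least 1000 counted bases, a length that every podocyte gene exceeds. Every simulated gene had the same spread between libraries beyond counting error, and no library differed in cell content. The shares thus do not hold for genes of wider spread.

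Members and lists were chosen with earlier results of these data known, so lists are given by counts and medians. Values per library are printed for called members, the 5 defining markers, the 3 lowest p-values and the 3 largest changes, and for the called genes of the wider list; others were chosen after their values were seen. The result of 1 uncalled cytoskeletal gene is not described in the text. The alternatives were the pseudocount, filter, scaling, variance model, voom on recovered reads, a replicate block and leaving out each library.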

Additional observations from a re-analysis of the deposited data

How the results depend on the processing

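The count of called podocyte genes, 2, became 1 with a pseudocount of 0.1 or quantile normalization and 0 without a low-value filter or the mean-variance trend; leaving out 1 library it ranged from 0 (control replicate 1, mutant replicate 1 or mutant replicate 2) to 2, with 1 without mutant replicate 3. Over all genes, 422 calls (178 higher, 244 lower) became 143 with no filter and 686 with voom on recovered reads, and ranged from 148 (without mutant replicate 2) to 1083 (without control replicate 3), with 210 when control replicate 1 was left out, 202 for mutant replicate 1 and 243 for mutant replicate 3. The split was 262 higher and 172 lower when scaled by median of ratios, and 264 and 163 under quantile normalization. The median of the podocyte genes moved from 0.021 to 0.123 and 0.101 under those scalings, and ranged from -0.01 to 0.077 without single libraries. The median of all tested genes moved with it under the scalings, from -0.125 to -0.032 and -0.020. The podocyte median minus that of all tested genes was 0.146 as deposited, 0.155 by median of ratios and 0.121 under quantile normalization. Calls in the wider list went from 1 to 2 with median-of-ratios scaling, quantile normalization or robust variance moderation and to 3 with voom, and ranged from 1 to 3 without single libraries. The cause of these shifts was not tested. Signs turned in 11 uncalled members. Without single libraries the log2 fold change ranged from -0.0087 to 0.11 in Kirrel, -0.10 to 0.15 in Cd2ap, -0.0191 to 0.0703 in Tjp1, -0.15 to 0.79 in Podxl, -0.13 to 0.12 in Ezr, -0.0599 to 0.11 in Arhgap24, -0.20 to 0.30 in Clic5, -0.15 to 0.0878 in Dag1, -0.0711 to 0.0706 in Mertk and -0.00085 to 0.16 in Tyro3. Actn4 was at 0.0173 with quantile normalization, and Dag1 at 0.0976 scaled by median of ratios and 0.14 under quantile normalization.

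Same-numbered libraries of the 2 genotypes deviated together only weakly (r across genes of 0.0526, 0.157 and 0.153 for numbers 1 to 3), so the numbers were not taken to pair them, although each library correlated best with its own number. With the replicate number as a block, 393 genes and the same count of 2 podocyte genes were called. Depth limits the 6 members under the filter: Nphs1 had 13 control and 67 mutant reads in all.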
